A study of Mus musculus with 9 samples.

Results

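The comparison described here set neural stem cell (NSC) cultures 1 h after the removal of epidermal growth factor (EGF) against the same kind of cultures at 0 h, gene by gene and within replicates. It used 6 of the 9 samples of the series, 3 at 0 h and 3 at 1 h, chosen by their labelled time points. The remaining 3 samples, taken at 6 h, entered the fit only to estimate the spread and are given for reference. All samples came from the subependymal zone (SEZ), the neurogenic niche along the lateral ventricles, of adult C57BL/6 mice. The NSCs were expanded as neurospheres, and the 0 h samples are the cells before differentiation was started. Differentiation took place on Matrigel in medium that kept FGF but lacked EGF. For cells fixed at early times, the study's methods describe a prior seeding in complete medium, so that EGF was lost only afterwards. Whether the sequenced cultures, 0 h included, were seeded in this way is not stated in the sources used here. A change of medium without loss of EGF was not among the samples, so the effects of medium change and EGF loss cannot be told apart. The labels number the replicates 1 to 3 at each time, but do not say whether a number marks 1 animal or 1 culture, so p-values measure the spread between these samples.

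EGF binds its receptor EGFR and drives the RAS and ERK kinase cascade, which maintains proliferation of cultured NSCs. Immediate early genes are genes whose transcription starts within minutes of a signal without new protein synthesis. Many encode transcription factors such as FOS, JUN, EGR and NR4A proteins, and others encode proteins that end the signal: phosphatases, inhibitors of G proteins and proteins that destroy mRNA.

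The libraries held between 65871454 and 90687377 reads counted on genes at 0 h and 1 h. Levels are given as CPM, which are counts scaled to library size, and fold changes on the log2 scale. Of 48526 genes in the table, 18858 had enough reads to be tested. A gene was called, and is said to have risen or fallen, when its adjusted p was under 0.05 in edgeR's quasi-likelihood test with Benjamini-Hochberg adjustment and the replicate number as a block. By this rule 257 genes (1.36%) were higher at 1 h and 404 genes (2.14%) were lower. These shares over all genes are the background for every gene list below. The rises were larger: in the called higher genes the log2 fold change had a median of 0.50, and it was 1 or more in 63 of them, whereas the called lower genes had a median of -0.31 and 7 of them reached -1. Every called higher gene and 403 of the 404 called lower genes moved in the same direction in all 3 pairs. Over all genes tested, 43.2% did so. A test with the replicate block favours such genes, so this agreement adds no separate support. The 0 h and 1 h samples did not overlap for 126 (49%) of the called higher and 227 (56.2%) of the called lower genes. This share was 8.24% over all genes tested. Without the block, where differences between replicates count as error, 8 genes were called higher and 0 lower by edgeR. At an unadjusted p under 0.05 that fit had 276 genes higher and 459 lower, no more than chance alone would give over 18858 tests.

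**Figure D1:**
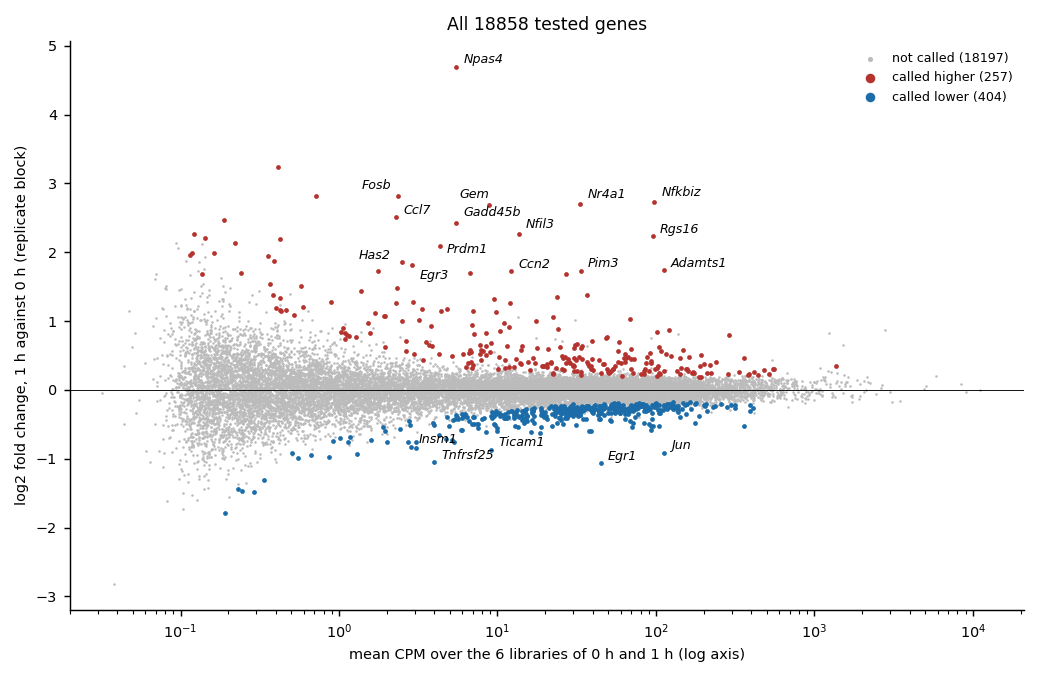
Each point is 1 of the 18858 tested genes, placed by its mean CPM over the 6 samples (horizontal, log axis) and its log2 fold change at 1 h against 0 h (vertical). Red points are the 257 genes called higher and blue points the 404 called lower, and the red points reach 4.70 (Npas4) whereas most blue points lie between 0 and -1.

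The cultures carried the RNA of NSCs. All 17 NSC markers were detected, with a summed level of 8133 to 9757 CPM at 0 h and 7946 to 10182 CPM at 1 h, and among them Nes, Vim, Fabp7 and Sox2 were not called. Gfap, a filament protein of adult NSCs and astrocytes, was low, at 1.63, 1.24 and 1.06 CPM at 0 h and 1.55, 1.17 and 0.514 CPM at 1 h in replicates 1, 2 and 3. Of the 17 NSC markers, Sox9 rose, with a log2 fold change of 0.43 ± 0.058 (SE from the fit, n = 3 pairs). Here and below, the value after ± is the log2 fold change divided by the square root of edgeR's F statistic. It comes from the fit over all 9 libraries and is not the spread of the 3 pair ratios. Sox1 rose too, by 0.31 ± 0.067, a call kept in 1 of the 6 single-sample fits, in each of which 1 sample of 0 h or 1 h was omitted. Of 107 named genes tried in this way, between 14 (1 h replicate 3 omitted) and 39 (0 h replicate 3 omitted) lost their call in a given fit. Microglial markers were low. C1qa, C1qb and Itgam had 0 counts in all 6 samples, and the 10 microglial markers summed to 4.19 to 6.50 CPM at 0 h and 3.08 to 4.74 CPM at 1 h, most of it from Cd68. The 10 endothelial and pericyte markers summed to 9.07 to 20.9 CPM at 0 h and 8.02 to 19.7 CPM at 1 h, with Cldn5 at 0 counts throughout, and the 5 fibroblast markers to 0.871 to 1.53 CPM and 1.52 to 1.75 CPM. Ependymal markers summed to 51.6 to 96.6 CPM at 0 h and 56.3 to 101 CPM at 1 h, most of it from Foxj1. Oligodendrocyte lineage markers summed to 1778 to 2365 CPM at 0 h and 1910 to 2273 CPM at 1 h, most of it from Olig1 and Olig2. Sox10 had 5, 2 and 12 counts at 0 h in replicates 1, 2 and 3. Of these 12 markers, 0 were called by edgeR and DESeq2 and 2 were lower at an unadjusted p under 0.05. Neuron and neuroblast markers summed to 1539.5 to 2144 CPM at 0 h and 1440 to 2206 CPM at 1 h, most of it from Map2. Astrocyte markers summed to 1035 to 1347.5 CPM and 1086 to 1416 CPM, with Aldoc the highest. In bulk RNA fewer cells of a type and less RNA per cell cannot be told apart.

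The largest rise was that of Npas4, a neuronal transcription factor known for its response to calcium entry, located at chr19:4984355-4990316 (GRCm38, minus strand). Npas4 stood at 0.235, 0.541 and 0.487 CPM at 0 h and at 10.9, 11.6 and 9.16 CPM at 1 h in replicates 1, 2 and 3. These samples were far from overlapping, and the log2 fold change was 4.70 ± 0.28 (SE from the fit, n = 3 pairs; edgeR, Benjamini-Hochberg adjusted p = 1.1e-06). Fosb, a FOS family partner of JUN in the AP-1 factor, was at 0.595, 0.419 and 0.759 CPM at 0 h and at 4.91, 3.64 and 3.87 CPM at 1 h. Nr4a1, an orphan nuclear receptor, was at 5.28, 10.5 and 11.5 CPM at 0 h and at 50.6, 60.7 and 60.4 CPM at 1 h. For both genes the lowest 1 h sample lay above the highest 0 h sample. Their log2 fold changes were 2.81 ± 0.19 and 2.71 ± 0.14 (edgeR, Benjamini-Hochberg adjusted p = 2.3e-06 and 3.4e-07). Nfil3, a bZIP repressor, stood at 4.62, 4.58 and 4.75 CPM at 0 h and at 26.2, 19.0 and 22.4 CPM at 1 h. Gadd45b, a stress sensor that acts on p38 and JNK signalling, stood at 1.98, 1.53 and 1.68 CPM at 0 h and at 9.38, 8.69 and 9.58 CPM at 1 h. At 0 h the samples of Nfil3 and Gadd45b were nearly level between replicates, and at 1 h none came near the 0 h range.

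Promoter sequence is shown for these early risers because they rose together. Each run gives the 250 bases before the RefSeq transcription start (GRCm38.p6), 5′ to 3′ on the gene's strand, with capitals marking matches on either strand to the motifs searched. The stretches lie at chr19:4989972-4990221 (Npas4, minus strand), chr7:19310046-19310295 (Fosb, minus strand), chr15:101266596-101266845 (Nr4a1, plus strand), chr13:52981040-52981289 (Nfil3, minus strand) and chr10:80929841-80930090 (Gadd45b, plus strand).
Npas4 promoter: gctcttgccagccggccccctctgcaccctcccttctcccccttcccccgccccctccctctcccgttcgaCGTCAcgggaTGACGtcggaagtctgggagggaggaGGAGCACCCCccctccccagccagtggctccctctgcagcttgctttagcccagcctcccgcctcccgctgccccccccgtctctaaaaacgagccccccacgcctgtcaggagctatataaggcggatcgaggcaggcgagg
Fosb promoter: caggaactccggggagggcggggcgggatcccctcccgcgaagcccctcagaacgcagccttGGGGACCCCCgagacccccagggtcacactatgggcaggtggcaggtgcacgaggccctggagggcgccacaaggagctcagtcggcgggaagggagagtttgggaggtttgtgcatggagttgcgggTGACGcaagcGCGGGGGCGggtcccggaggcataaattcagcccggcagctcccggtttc
Nr4a1 promoter: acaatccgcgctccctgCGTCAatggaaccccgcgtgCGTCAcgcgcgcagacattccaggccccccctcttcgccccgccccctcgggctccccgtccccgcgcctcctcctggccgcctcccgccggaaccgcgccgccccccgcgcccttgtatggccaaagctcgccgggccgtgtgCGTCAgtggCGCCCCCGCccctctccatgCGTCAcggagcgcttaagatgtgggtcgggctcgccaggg
Nfil3 promoter: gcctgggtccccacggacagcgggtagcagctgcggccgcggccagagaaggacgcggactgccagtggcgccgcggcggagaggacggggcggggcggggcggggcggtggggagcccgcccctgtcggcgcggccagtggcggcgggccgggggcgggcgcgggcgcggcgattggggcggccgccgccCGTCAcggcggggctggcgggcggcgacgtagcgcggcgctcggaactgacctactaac
Gadd45b promoter: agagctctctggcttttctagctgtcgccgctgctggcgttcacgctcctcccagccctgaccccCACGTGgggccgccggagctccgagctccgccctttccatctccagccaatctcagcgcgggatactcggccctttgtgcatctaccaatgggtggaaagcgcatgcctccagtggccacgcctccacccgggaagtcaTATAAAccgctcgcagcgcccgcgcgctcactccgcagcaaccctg

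The motifs searched were the TATA box TATAAA, the cAMP response element TGACGTCA and its core TGACG, the AP-1 element TGANTCA, the EGR elements GCGGGGGCG and GCGTGGGCG, the CArG box, the NF-kB element, the ETS core CCGGAAGT, the FOXO element TGTTTAC and the E-box CACGTG. The core TGACG lies within TGACGTCA. Windows of 300 bases, 250 before and 50 after the start, were found for 9 of the 15 genes with the largest rise. The core TGACG was in the windows of 6 of these 9 genes, namely Npas4, Fosb, Nr4a1, Nfil3, Prdm1 and Adamts1, and in 23% of all 27025 genes with a window. Nr4a1 held 4 copies, all read on the opposite strand as CGTCA, and Npas4 held 2 copies, 179 and 169 bases before the start. An EGR element was present in Fosb and Nr4a1 and in 3.93% of all genes with a window. The NF-kB element was present in Npas4, Fosb, Nr4a1 (where it runs across the start) and Pim3 and in 9.55% of all genes with a window. Gadd45b held TATAAA 46 bases before the start and an E-box, found in 15.7% and 8.09% of all genes with a window, and no TGACG. The full TGACGTCA (2.03% of all genes with a window), the CArG box (1.81%) and the ETS core (4.31%) matched in none of the 9 genes. AP-1 (8.97%) and FOXO (4.05%) elements matched in Prdm1, and Adamts1 held a TATA box. A match of letters is a description and not a shown binding site.

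Immediate early transcription factors did not rise as a block. Of 12 tested AP-1 and related bZIP genes, 4 rose (Fosb, Atf3, Mafk and Fosl2), 1 fell (Jun) and 7 were not called. Over all genes, 1.36% were called higher and 2.14% lower. The median log2 fold change of the list was 0.13 against 0.00 over all genes. Atf3, a stress-induced repressor, went from 1.05, 1.30 and 1.32 CPM at 0 h to 3.98, 2.81 and 3.53 CPM at 1 h. Jun moved the other way, from 170, 114 and 158 CPM at 0 h to 96.7, 64.7 and 73.1 CPM at 1 h, with every 1 h sample below every 0 h sample and a log2 fold change of -0.91 ± 0.063 (edgeR, Benjamini-Hochberg adjusted p = 2.9e-06). Fos, the gene after which the family is named, averaged 14.6 CPM at 0 h and 15 CPM at 1 h, and Junb averaged 4.70 and 4.25 CPM. The calls of Mafk and Fosl2 were small (log2 fold changes of 0.52 and 0.34) and were retained in 3 and 1 of the 6 single-sample fits.

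The EGR zinc finger factors split in the same way. Egr3 stood at 0.995, 1.70 and 1.00 CPM at 0 h and at 7.11, 3.55 and 2.99 CPM at 1 h, above the 0 h range in every sample, with a log2 fold change of 1.81 ± 0.26. At 6 h Egr3 was listed at 0.0814, 0.132 and 0.0467 CPM, below its 0 h samples. Egr1 stood at 52.2, 48.7 and 81.4 CPM at 0 h and at 29.4, 25.4 and 31.4 CPM at 1 h, a log2 fold change of -1.07 ± 0.22 (edgeR, Benjamini-Hochberg adjusted p = 0.0176). The Egr1 call was lost on omission of 0 h replicate 3 (log2 fold change of -0.74, adjusted p = 0.189), 1 h replicate 2 (-0.92, 0.0637) or 1 h replicate 3 (-1.09, 0.051), and with DESeq2 (-1.06, 0.0618). Egr4 rose by 0.94 ± 0.20 on the log2 scale, a call kept in 1 of the 6 single-sample fits. Egr2 averaged 3.41 CPM at 0 h and 3.43 CPM at 1 h, and the corepressor genes Nab1 and Nab2 were not called.

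Among 19 other immediate early genes, 9 rose, 1 fell and 9 were not called (median log2 fold change 0.24), where 1.36% of all genes were called higher and 2.14% lower. The 3 NR4A receptors were all among the risers: beside Nr4a1, Nr4a3 went from 3.07, 4.45 and 12.2 CPM to 9.81, 10.5 and 18.4 CPM, and Nr4a2 from 3.19, 3.85 and 3.41 CPM to 4.69, 6.18 and 4.28 CPM. The other risers were Npas4, Per1, Csrnp1, Bdnf, Ier5l and Srf, of which Bdnf kept its call in 2 of the 6 single-sample fits. Sik1, a salt-inducible kinase that restrains CREB coactivators, fell by 0.52 ± 0.082 on the log2 scale. Arc and Ier2, both classical early genes, averaged 6.71 and 10.5 CPM at 0 h and 5.67 and 8.44 CPM at 1 h and were not called. Of 12 Kruppel-like factors, 3 rose and 1 fell, beside the same shares of 1.36% and 2.14% over all genes. Klf5 went from 1.51, 1.84 and 1.75 CPM to 4.03, 4.66 and 3.70 CPM. Klf4 and Klf6 rose by 0.86 ± 0.11 and 0.57 ± 0.066 on the log2 scale, and Klf10, induced by TGF-beta in many cells, fell by 0.50 ± 0.071.

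**Figure D2:**
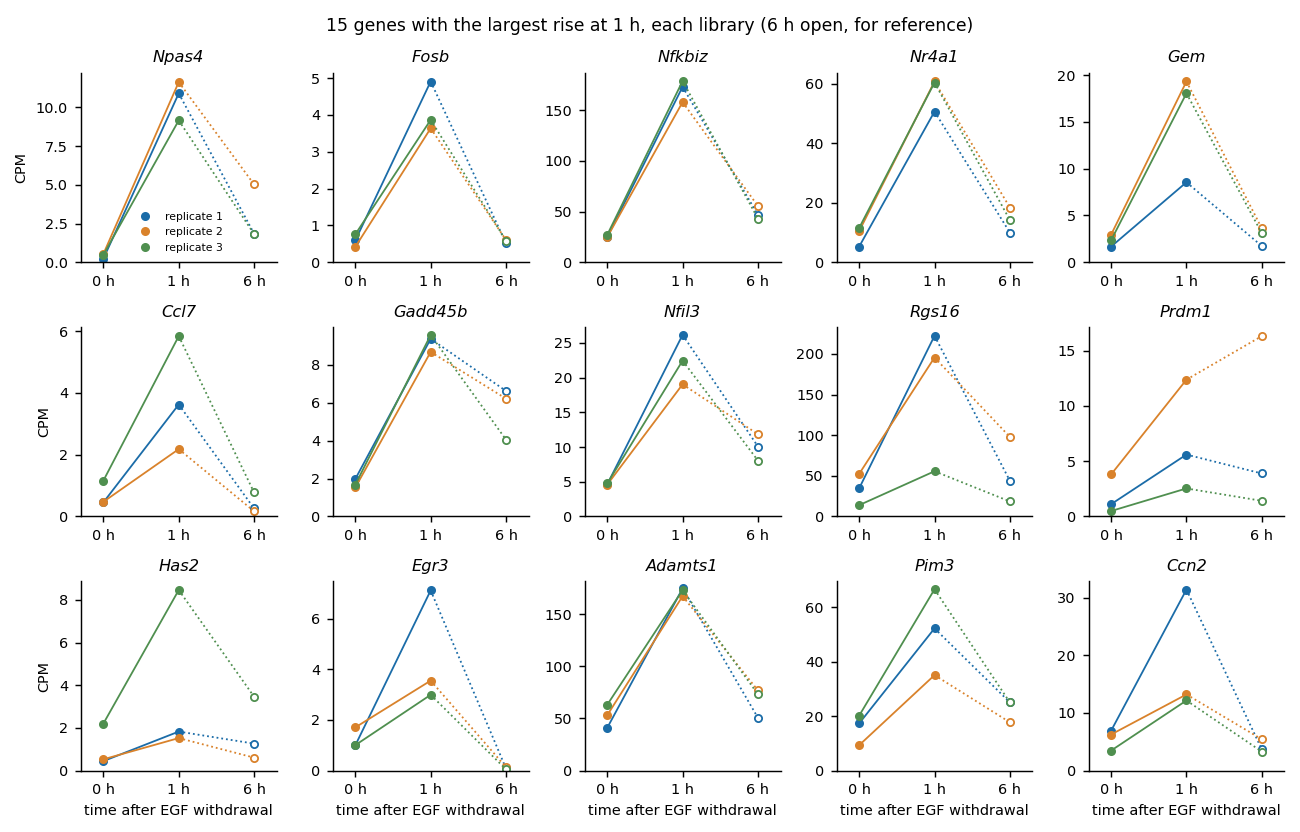
CPM (vertical, from 0, own scale for each gene) at the 3 time points (horizontal, evenly spaced) of the 15 genes with the largest rise; filled points and solid lines join the 0 h and 1 h samples of 1 replicate, and open points are the 6 h samples. Each of the 45 solid lines goes up, which the rule for choosing these genes required. Only for Prdm1 and Has2 do the 0 h and 1 h ranges overlap.

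Nfkbiz, which encodes the nuclear NF-kB modulator IκBζ and lies at chr16:55811375-55838899 (GRCm38, minus strand), had the smallest adjusted p among the named genes. It stood at 24.9, 24.9 and 27.1 CPM at 0 h and at 173, 158 and 179 CPM at 1 h. Of 17 tested NF-kB subunits, inhibitors and targets, Nfkbiz included, 3 rose and 0 fell by edgeR, where 1.36% of all genes were called higher and 2.14% lower. The median log2 fold change of the 17 genes was -0.01. At an unadjusted p under 0.05, 7 of them were higher and 0 lower, and DESeq2 called 4 higher and 0 lower. Rel and Relb, both subunits, rose by 0.43 ± 0.086 each, calls that were kept in 1 and 3 of the 6 single-sample fits. Nfkbia and Tnfaip3, inhibitors that NF-kB itself induces, averaged 19.7 and 3.59 CPM at 0 h and 23.3 and 4.68 CPM at 1 h and were not called. Ticam1, the TRIF adaptor of Toll-like receptors, fell from 11.0, 12.4 and 12.1 CPM to 6.11, 6.45 and 6.83 CPM, a log2 fold change of -0.87 ± 0.074. Tnfrsf25, a death domain receptor, fell from 5.09, 5.91 and 5.2 CPM to 2.19, 2.84 and 2.78 CPM. Neither Ticam1 nor Tnfrsf25 overlapped between 0 h and 1 h.

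Cytokine, receptor and related signalling genes showed a mixed pattern. Ccl7, a monocyte-attracting chemokine, stood at 0.456, 0.473 and 1.16 CPM at 0 h and at 3.62, 2.18 and 5.84 CPM at 1 h, and then at 0.258, 0.165 and 0.775 CPM at 6 h. Ptgs2, the inducible cyclooxygenase, went from 0.138, 0.162 and 0.229 CPM to 1.41, 1.29 and 1.06 CPM, and Cxcl10 from 1.22, 0.581 and 1.25 CPM to 2.73, 1.07 and 2.24 CPM. Ccl7 and Ptgs2 did not overlap between the times, whereas Cxcl10 was higher in each pair but overlapped, and its call was lost without 0 h replicate 1 (log2 fold change of 0.82, adjusted p = 0.0722). Of 16 tested cytokine, receptor and SOCS genes, 4 rose (Ptgs2, Cxcl10, Lif and Ccl2) and 2 fell (Csf1 and Il6ra) by edgeR. DESeq2 called 2 of the 16 higher and 2 lower. The calls of Lif, Ccl2 and Csf1 were each kept in 3 of the 6 single-sample fits and that of Il6ra in 0. Socs3, a feedback inhibitor of STAT3 signalling, averaged 9.37 CPM at 0 h and 9.33 CPM at 1 h. Bmp2, a bone morphogenetic protein, was low but rose from 0.0968, 0.243 and 0.158 CPM to 0.359, 0.975 and 0.487 CPM, a call lost without 0 h replicate 2 (log2 fold change of 1.49, adjusted p = 0.164).

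Other genes among the 15 largest rises have varied roles. Gem, a small GTPase that inhibits calcium channels, went from 1.67, 2.95 and 2.35 CPM to 8.55, 19.3 and 18.1 CPM. Rgs16, which speeds GTP hydrolysis by G proteins, went from 34.6, 52.4 and 13.9 CPM to 222, 196 and 55.6 CPM. The replicates differed widely in Rgs16, yet the lowest 1 h sample was still above the highest 0 h sample. Rgs2, Arl4a and Arl4c, 3 further regulators of G protein or small GTPase signalling that were picked after their values were seen, rose by 1.35 ± 0.092, 0.84 ± 0.046 and 0.86 ± 0.056 on the log2 scale. Adamts1, a secreted protease of the matrix, went from 41.0, 53.1 and 63.2 CPM to 175, 168 and 173 CPM, and the replicates lay closer at 1 h than at 0 h. Has2, a hyaluronan synthase, went from 0.442, 0.527 and 2.21 CPM to 1.83, 1.52 and 8.47 CPM, so that replicate 3 stood apart at both times and the ranges overlapped. Pim3, a survival kinase, went from 17.3, 9.31 and 20.2 CPM to 52.2, 35 and 66.6 CPM, and Prdm1, a transcriptional repressor, from 1.11, 3.80 and 0.487 CPM to 5.59, 12.4 and 2.53 CPM.

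Ccn1 and Ccn2, matricellular genes controlled by YAP and SRF in many cell types, stood out within their list. Ccn2 went from 6.91, 6.26 and 3.47 CPM to 31.4, 13.2 and 12.2 CPM, and Ccn1 from 11.3, 11.0 and 16.7 CPM to 49.3, 29.4 and 45.1 CPM. Of the 18 tested YAP and SRF target genes, 3 rose and 2 fell, with a median log2 fold change of 0.00. The third riser, Acta2, and the fallers Amotl1 and Ajuba changed by at most 0.30 on the log2 scale and kept their calls in 1, 1 and 2 of the 6 single-sample fits. Actb, the cytoplasmic actin, averaged 1644 CPM at 0 h and 1706 CPM at 1 h. Thbs1 and Vcl were not called.

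Several of the listed regulators of mRNA decay rose. Of 12 tested members, 7 rose and 1 fell, with a median log2 fold change of 0.25, where 1.36% of all genes were called higher. Like every gene list here, this one was chosen with earlier results of these data known, so its share is a description only. Zfp36 encodes tristetraprolin, which binds AU-rich elements of short-lived mRNAs, and it went from 2.42, 2.61 and 3.17 CPM to 6.05, 6.10 and 6.03 CPM. Its relative Zfp36l1 went from 16.7, 16.4 and 16.4 CPM to 26.1, 26.9 and 21.9 CPM. Zfp36l2 went the other way, with a log2 fold change of -0.29 ± 0.051, and its call was kept in 3 of the 6 single-sample fits. Btg1, an antiproliferative adaptor of the deadenylase complex, rose in each pair, from 44.0, 58.1 and 37.1 CPM to 62.9, 86.6 and 57.2 CPM, and Pnrc1 rose by 0.46 ± 0.073 on the log2 scale. Zc3h12a, the endonuclease regnase-1, rose by 0.90 ± 0.17 with a call kept in 3 of these 6 fits. Rc3h1 and Btg2 rose by 0.27 ± 0.052 and 0.23 ± 0.049. The list gave 7 rises and 1 fall also without 1 h replicate 3, and 6 rises and 1 fall without replicate 3 and by DESeq2.

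Of 18 tested genes of the circadian clock and its Nfil3 and PAR bZIP output arm, 7 rose, 1 fell and 10 were not called, where 1.36% of all genes were called higher and 2.14% lower. The median log2 fold change of the list, also chosen with earlier results known, was 0.06. Per1, a repressor of the clock and an early gene, went from 17.6, 17.9 and 23.1 CPM to 32.7, 29.2 and 28.4 CPM. Ciart, a repressor of the CLOCK complex, went from 5.03, 6.11 and 4.30 CPM to 8.03, 8.52 and 10.4 CPM, and neither gene overlapped between the times. Nr1d1, Cry2, Bhlhe40 and Rora rose by 0.48 ± 0.067, 0.45 ± 0.057, 0.45 ± 0.058 and 0.35 ± 0.059 on the log2 scale. Bhlhe41, the relative of Bhlhe40, fell from 9.05, 8.37 and 7.45 CPM to 5.70, 6.43 and 5.45 CPM, with a call kept in 4 of the 6 single-sample fits. Clock, Per2 and Per3 averaged 108, 71.6 and 23.6 CPM at 0 h and 103, 68.2 and 23.2 CPM at 1 h and were not called.

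Feedback genes of ERK signalling did not move together. Dusp6, the ERK phosphatase, fell from 510, 365 and 387 CPM to 393, 266 and 230 CPM in replicates 1, 2 and 3, a log2 fold change of -0.53 ± 0.090 (edgeR, Benjamini-Hochberg adjusted p = 0.00584), and this call was lost without 0 h replicate 3 (-0.42, adjusted p = 0.0614). Dusp5 and Dusp16 rose by 0.51 ± 0.094 and 0.30 ± 0.056 on the log2 scale, each called in 3 of the 6 single-sample fits, and the other 7 phosphatases tested were not called. Of 17 Sprouty, SPRED and ETS genes, 2 rose and 0 fell by edgeR, with 3 higher and 4 lower at an unadjusted p under 0.05. DESeq2 called 3 higher and 1 lower, and edgeR also called 1 lower with GC and length trends removed or with library totals. Ets1, an ETS transcription factor, went from 40.9, 32.6 and 36.3 CPM to 71.1, 57.8 and 57.5 CPM, and stood at 126, 93.4 and 98.2 CPM at 6 h. Spry1, an inhibitor of receptor kinase signalling, rose by 0.46 ± 0.091, a call lost without 0 h replicate 1 (0.44, adjusted p = 0.0722) and without 0 h replicate 2 (0.39, adjusted p = 0.117). Etv5, Etv4 and Spry4 averaged 545, 156 and 203 CPM at 0 h and 551, 164 and 211 CPM at 1 h. Myc fell from 118, 102 and 107 CPM to 89.8, 64.9 and 73.1 CPM without overlap. Ccnd1, the G1 cyclin downstream of ERK, averaged 1782 CPM at 0 h and 1655 CPM at 1 h and was not called. Of the 14 tested ErbB receptors, ligands and inhibitors, 0 were called by edgeR, and Egfr averaged 659 CPM at 0 h and 627 CPM at 1 h. In the ErbB list 2 genes were higher and 1 lower at an unadjusted p under 0.05 by edgeR. DESeq2 called 1 higher, and so did edgeR with GC and length trends removed, without 1 h replicate 3 and without replicate 3.

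Of 25 genes of the G1 cyclins, the MYC family and replication, 1 rose (Mycn) and 2 fell (Myc and E2f2), and the calls of Mycn and E2f2 were kept in 2 and 1 of the 6 single-sample fits. Mki67 and Top2a, marks of cycling cells, averaged 930 and 896 CPM at 0 h and 811 and 878 CPM at 1 h and were not called. Of 18 growth arrest and p53 response genes, 4 rose and 2 fell, where 1.36% of all genes were called higher and 2.14% lower. Cdkn1a, the p21 inhibitor of cyclin kinases, went from 568, 381 and 558 CPM to 682, 473 and 697 CPM, a log2 fold change of 0.30 ± 0.045. Gdf15, a stress cytokine, differed more between replicates than between times, at 12.1, 1.42 and 20.1 CPM against 19.1, 2.18 and 30.9 CPM, and rose in each pair. Pmaip1, the BH3-only protein NOXA, fell from 53.5, 35.1 and 21.5 CPM to 36.3, 25.2 and 15.2 CPM. Ddit4 and Gadd45g changed by 0.24 and -0.26 on the log2 scale, with calls kept in 2 and 0 of the 6 single-sample fits.

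Of 20 FOXO factors and genes that respond to growth factor withdrawal, 4 rose and 1 fell, where 1.36% of all genes were called higher and 2.14% lower. Cited2, a CBP-binding coregulator, went from 7.69, 7.12 and 10.1 CPM to 16, 13.9 and 16.7 CPM. Fbxo32, Irs2 and Trib2 rose by 0.52 ± 0.10, 0.32 ± 0.071 and 0.22 ± 0.050, with calls kept in 3, 2 and 1 of the 6 single-sample fits. Txnip, an inhibitor of thioredoxin and of glucose uptake, fell from 4.51, 2.13 and 5.31 CPM to 2.08, 1.70 and 2.57 CPM, and its call was kept only without 1 h replicate 2. On omission of any other sample the adjusted p for Txnip lay between 0.064 (0 h replicate 2) and 0.111 (0 h replicate 3). Foxo1 and Foxo3 averaged 16.7 and 106 CPM at 0 h and 14.7 and 98.6 CPM at 1 h and were not called.

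Of 15 tested sterol synthesis genes, 7 rose, 0 fell and 8 were not called by edgeR, with a median log2 fold change of 0.15, where 1.36% of all genes were called higher. At an unadjusted p under 0.05, 9 were higher and 0 lower, and DESeq2 called 7 higher and 0 lower. This list too was chosen with earlier results known. Fdps, which makes farnesyl diphosphate, went from 8.21, 5.91 and 8.25 CPM to 16.2, 12.4 and 15.2 CPM, with no overlap and a log2 fold change of 0.98 ± 0.077. Insig1, the ER anchor of SCAP, went from 306, 273 and 327 CPM to 417, 366 and 466 CPM and stood at 653, 574 and 614 CPM at 6 h. Lss rose by 0.30 ± 0.064 with a call kept in 3 of the 6 single-sample fits, and Fdft1 and Sqle rose by 0.25 and 0.22. Fdft1 lay at the threshold (edgeR, Benjamini-Hochberg adjusted p = 0.049977) and lost its call without 1 h replicate 3 (adjusted p = 0.0695). Fasn and Scd1, enzymes of fatty acid synthesis, were not called. The list gave 6 rises in the fits scaled by library totals, without 1 h replicate 3 and without replicate 3.

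Niche signalling genes changed in small numbers. Hes1, a Notch target that maintains NSCs, fell from 23.5, 31.9 and 27.1 CPM to 15.6, 25.5 and 18.6 CPM, lower in each pair with overlapping ranges. Jag1, a Notch ligand, rose by 0.46 ± 0.071, and the other 14 of 16 tested Notch pathway genes were not called. The ID proteins, inhibitors of bHLH factors, split: Id3 fell from 86.2, 89.2 and 74.2 CPM to 53.6, 70.5 and 48.7 CPM, Id2 fell by 0.43 ± 0.051, and Id1 rose by 0.33 ± 0.073 with a call kept in 1 of the 6 single-sample fits. In the ID and BMP list of 18 tested genes, 2 rose (Bmp2 and Id1) and 3 fell (Id3, Id2 and Skil, the last called in 3 of these 6 fits). Axin2, a feedback inhibitor and target of WNT signalling, fell from 50.8, 42.6 and 46.5 CPM to 32.2, 33.5 and 27.0 CPM without overlap and was at 57.9, 55.8 and 46.3 CPM at 6 h. It was the 1 gene of 13 tested in the WNT list called by the main edgeR fit. DESeq2 called 1 higher and 1 lower in this list, and so did edgeR without 1 h replicate 3 and without replicate 3. Insm1, a zinc finger factor of newborn neurons and neuroendocrine cells, fell from 3.82, 3.18 and 3.98 CPM to 1.99, 1.94 and 2.21 CPM. Sox4, a factor of neuroblasts, rose from 89.5, 85.3 and 85.3 CPM to 139, 136 and 113 CPM, while the other 17 tested neuronal markers were not called.

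**Figure D3:**
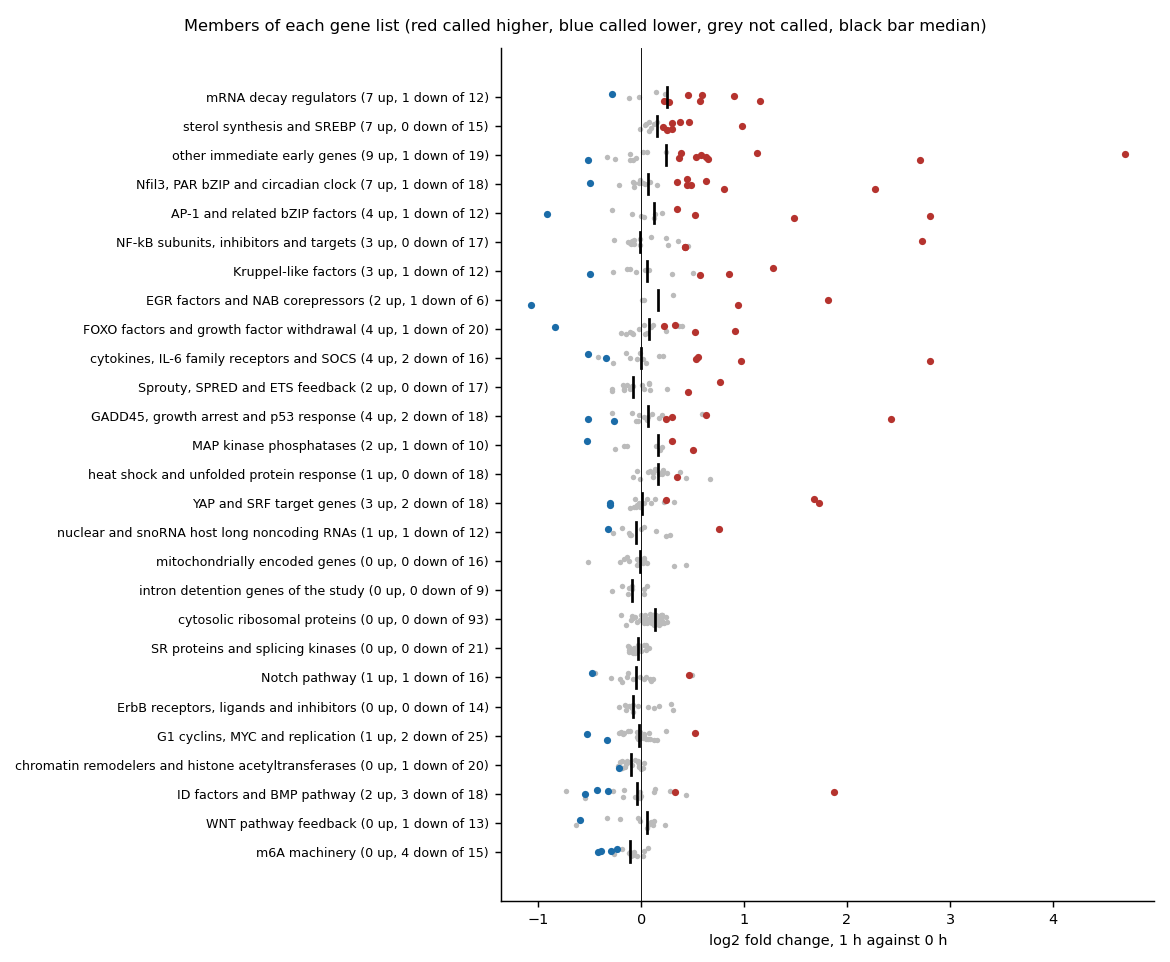
Each row is a gene list, each point 1 tested member at its log2 fold change (horizontal), red where called higher, blue where called lower and grey where not called, and the black bar is the median of the list. Red points reach furthest right among the early genes, mRNA decay regulators carry 7 red points of 12, and the m6A row holds 4 blue points and no red.

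Of 15 tested genes of the m6A machinery, which writes, reads or erases methylated adenosine in mRNA, 0 rose and 4 fell by edgeR (0 higher and 7 lower at an unadjusted p under 0.05; 0 and 5 called by DESeq2), with a median log2 fold change of -0.11, where 2.14% of all genes were called lower. Ythdf2, a reader that destabilises methylated mRNA, went from 82.6, 83.8 and 83.6 CPM to 61.9, 64.9 and 64.1 CPM, a drop far outside the spread of either group. Rbm15, an adaptor of the methyltransferase, went from 44.4, 38.2 and 41.5 CPM to 33.9, 29.9 and 29.0 CPM, and its call was lost without 0 h replicate 2 (log2 fold change of -0.40, adjusted p = 0.0531). Mettl14 and Ythdf3 fell by 0.29 and 0.24 on the log2 scale, and these 2 calls were lost once GC and length trends were removed (adjusted p = 0.113 and 0.0536). Among 12 long noncoding RNAs, 1 rose and 1 fell. These counts were 2 and 3 without 1 h replicate 3, and 2 and 4 without replicate 3. Neat1, the scaffold of paraspeckles, rose from 19.4, 39.2 and 50.8 CPM to 35.9, 59.6 and 86.5 CPM, and Snhg12 fell by 0.32 ± 0.078 with a call kept in 1 of the 6 single-sample fits. Of 20 chromatin remodelers and acetyltransferases, 1 fell, Chd1, whose call was kept in 0 of these 6 fits. By edgeR 0 of 21 SR proteins and splicing kinases were called, with 4 lower at an unadjusted p under 0.05, and DESeq2 also called 0. By edgeR and DESeq2 0 of 9 genes that the study names for intron detention were called, and 0 had an unadjusted p under 0.05. The study's result for these genes concerns intron retention and mRNA location, which gene counts do not measure.

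Among the 15 largest falls, 8 kept their call in all 6 single-sample fits: Tnfrsf25, Jun, Ticam1, Insm1, Ypel4, Cdc42ep2, Lcat and Igdcc3. All 15 of the largest rises did so. Cdc42ep2, an effector of the CDC42 GTPase, went from 3.12, 5.65 and 2.63 CPM to 1.67, 3.71 and 1.5 CPM, lower in each pair. Igdcc3, an immunoglobulin superfamily membrane protein, went from 4.92, 6.66 and 6.06 CPM to 2.78, 4.46 and 3.56 CPM and was at 6.95, 11.2 and 9.31 CPM at 6 h. Lcat, an enzyme that esterifies cholesterol, went from 6.33, 5.29 and 7.45 CPM to 3.19, 2.88 and 5.83 CPM. Of the others, Lrrc32 and Lrrn4 were called in 2, Gm29093 in 1 and Gm26890 and the antisense RNA Nckap5los in 4 of these 6 fits. Nckap5los overlaps Nckap5l on the opposite strand, and since the strand setting of the counting is not given in the sources used here, reads of the pair may not be told apart.

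**Figure D4:**
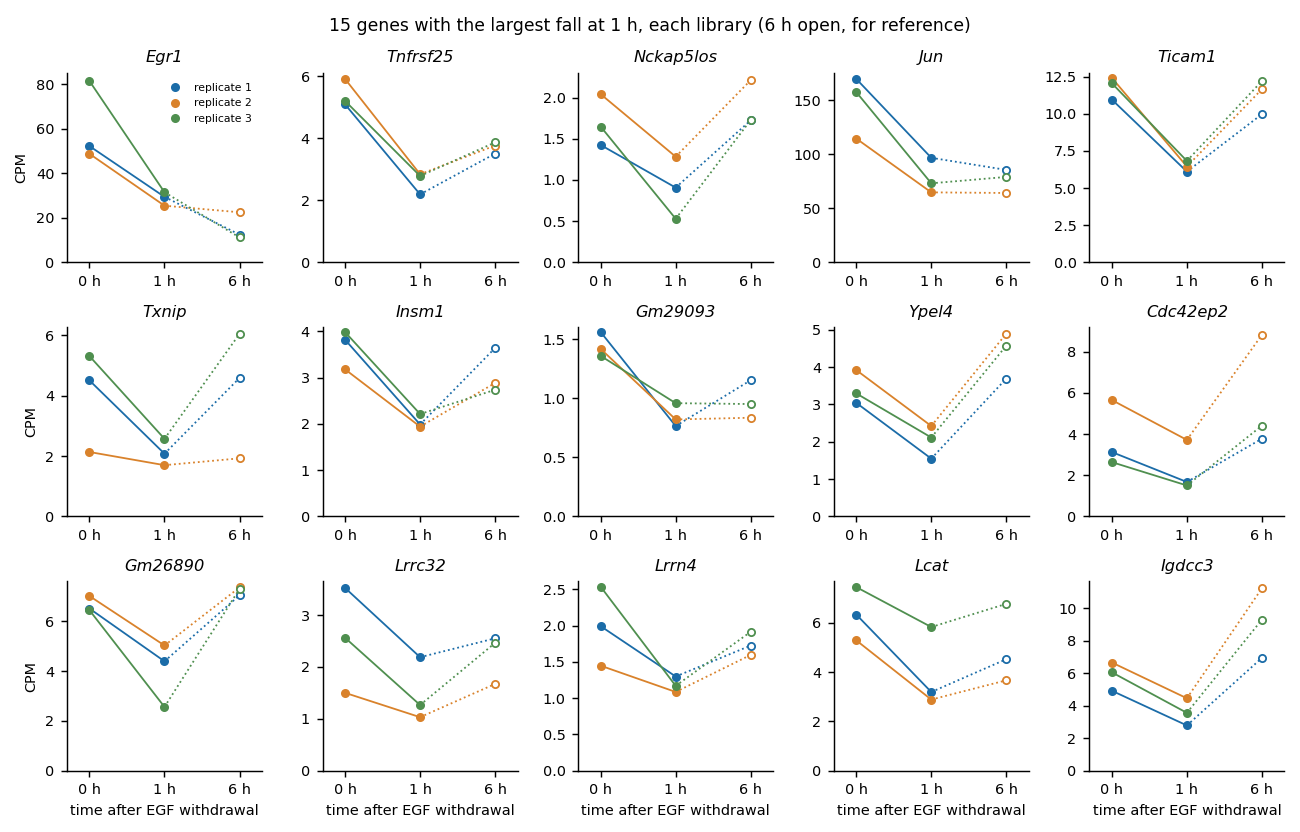
CPM (vertical, from 0, own scale for each gene) at the 3 time points (horizontal, evenly spaced) of the 15 genes with the largest fall; filled points and solid lines join the 0 h and 1 h samples of 1 replicate, and open points are the 6 h samples. Each of the 45 solid lines goes down, which the rule for choosing these genes required. Egr1 and Jun stay low at 6 h whereas Igdcc3 ends above its 0 h samples.

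Zinc finger genes were frequent among the falls. By symbol (Zfp with a number, Zkscan, Zscan or Zbtb, without the Zfp36 family), 56 of 431 tested zinc finger genes fell and 2 rose, that is 13% lower against 2.14% of all genes. They made up 13.9% of the called lower genes and 2.29% of all tested genes, and their median log2 fold change was -0.15. This grouping was chosen after the values were seen and carries no test. The 56 falls were small, from -0.55 to -0.22 on the log2 scale. Zfp820 went from 10.9, 7.28 and 8.75 CPM to 7.16, 5.96 and 5.08 CPM, and Zbtb1 from 58.6, 63.0 and 58.7 CPM to 45.6, 46.4 and 40.1 CPM, both without overlap. In the family, 51 genes were called lower with GC and length trends removed, and 31 without 1 h replicate 3. Members of this family share sequence, so their counts are uncertain where reads could be split between paralogs.

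The called lower genes were also long. Their median transcript length was 4575 bases against 2886 bases for all tested genes and 3299 bases for the called higher genes. These sets were not matched for gene type or level. Protein coding genes made up 95.8% of the called lower, 87.9% of the called higher and 75.4% of all tested genes. The median levels were 34.1, 24.2 and 11 CPM in the same order. With genes divided by length into 5 bins, the longest bin (4839 bases or more) held 174 called lower and 50 called higher genes, and the shortest (up to 1269 bases) 10 and 19. The length trend differed between pairs. In replicate 3 the median log2 ratio of 1 h over 0 h ran from 0.12 in the shortest bin to -0.18 in the longest, whereas in replicates 1 and 2 it stayed between -0.02 and 0.05. With GC and length trends removed 293 genes were called higher and 411 lower, and the median length of the latter was 3982 bases. Without 1 h replicate 3, 261 genes were called higher and 284 lower, with a median length of 4029 bases for those lower. With replicate 3 left out at both times, 240 genes were called lower with a median length of 4243 bases and 238 higher with a median of 3912.5 bases, so that the called lower genes were still longer than all tested genes and closer in length to the called higher ones. Of the 404 called lower genes, 332 were also called with the trends removed and 252 without that sample, and of the 257 called higher genes 242 and 211.

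**Figure D5:**
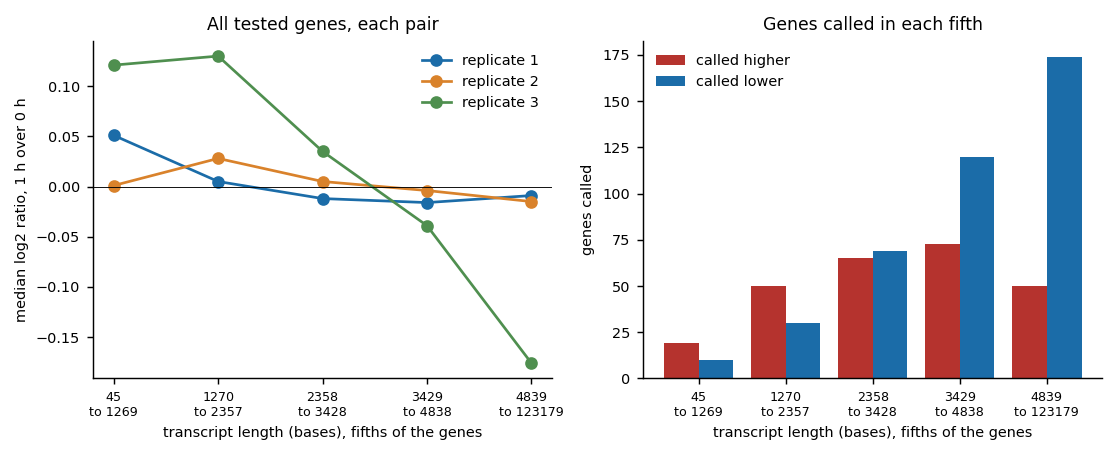
Left, the median log2 ratio of 1 h over 0 h of all tested genes (vertical) in 5 bins of transcript length (horizontal), with 1 line for each replicate; replicate 3 runs from 0.12 down to -0.18. Right, the number of genes called higher (red) and lower (blue) in the same bins, with 174 called lower in the longest.

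Housekeeping groups gave few calls. By edgeR 0 of 93 cytosolic ribosomal protein genes were called, with a median log2 fold change of 0.13, while 44 were higher and 0 lower at an unadjusted p under 0.05 and DESeq2 called 6 higher. The part of the length trend of replicate 3 in this shift was not tested. By edgeR and DESeq2 0 of 16 mitochondrially encoded genes were called, with a median of -0.02 and 3 genes lower at an unadjusted p under 0.05. Of 18 heat shock and unfolded protein response genes, 1 was called, Atf4, which rose by 0.35 on the log2 scale with a call kept in 2 of the 6 single-sample fits. Hspa5, an ER chaperone, averaged 585 CPM at 0 h and 658 CPM at 1 h, and Hspa8 and Hsp90aa1 were not called. Glul, a glutamine synthetase of astrocytes, was the 1 called gene of 8 tested astrocyte markers and rose by 0.24 ± 0.050, with a call kept in 1 of these 6 fits. The microglial marker Cd68 fell from 3.88, 5.55 and 6.24 CPM to 2.70, 3.04 and 4.24 CPM, called in 2 of these 6 fits. Which cells gave the rise of Ccl7, Ptgs2 and Cxcl10 was not tested.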

How the data were processed

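Total RNA of 9 NSC samples was sequenced as stranded, paired-end mRNA libraries. The authors deposited raw counts of reads per Ensembl gene, without normalisation, from alignment by STAR 2.5.3a to mm10 (GRCm38). The submitters' processing notes also list FastQC and DESeq2 1.22.1. The strand setting is not given in the sources used here. Here, counts were matched to GENCODE M21, filtered by filterByExpr (at least 10 counts in a library of median size in as many libraries as a group holds, and 15 in all), scaled by TMM and fitted with edgeR 4.0.16 (R 4.3.3) as replicate plus time over all 9 libraries. CPM values use TMM-scaled totals. The smallest chi-square per degree of freedom between any 2 of the libraries was 13.4, so all 9 libraries were counted as separate samples. The numbers were treated as pairs because the comparison was defined as paired by the labels. Deviations from group means correlated between 0 h and 1 h samples of the same number (Pearson r, across genes, of 0.755, 0.80 and 0.75). Between other numbers r ran from -0.46 to -0.32, but subtracting the mean of 3 samples itself pulls these values below 0. The script was tested on simulated data. Named genes were the 15 largest rises and falls among called genes with a mean of at least 1 CPM, 3 of 3 pairs in 1 direction and a call with GC and length trends removed, the given markers, and up to 5 called members of each list per direction. Most other genes named as called complete a list's count, and genes named as not called are examples. Called genes outside this rule were not among the 107 followed across the single-sample fits. The absence of a note on such a gene does not mark a stable call. Members and lists were chosen with earlier results of these data known. Alternatives were fits without the block, with 6 libraries, with trends removed, DESeq2 1.42.0, other scalings and filters, stricter thresholds and samples left out. Some list members are counted but not reported here by name.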

Additional observations from a re-analysis of the deposited data

How the results depend on the processing

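The comparison rests on pairing. With no replicate block, 8 genes were called higher and 0 lower by edgeR (276 and 459 at an unadjusted p under 0.05), with a biological coefficient of variation of 0.277 against 0.0627 with the block. With no filter on low counts, 581 genes were called higher and 788 lower. At an adjusted p under 0.01 the counts were 129 and 111, and with a required absolute log2 change of 1 or more they were 63 and 7. Leaving out a replicate or a single 0 h or 1 h sample gave 116 to 261 genes higher and 68 to 284 lower. The lowest counts came without replicate 2 (116 and 68), 0 h replicate 3 (135 and 84) and 0 h replicate 2 (126 and 87). They were 157 and 113 without replicate 1, 140 and 117 without 0 h replicate 1, 238 and 240 without replicate 3, 175 and 152 without 1 h replicate 1 and 179 and 265 without 1 h replicate 2. The other alternatives stayed within 1.5 times of both counts. Of 107 named genes, 0 reversed in any alternative that gave them a value (102 had an adjusted p by DESeq2, and 105 were in the fit of genes with a mean of at least 1 CPM), 58 kept their call in each fit that left out a single sample, and 6 kept it without the block, namely Npas4, Fosb, Nfkbiz, Gadd45b, Nfil3 and Adamts1. Depth limits genes under 1 CPM, which include 25 of the called higher and 10 of the called lower genes. A sample left alone in its group was assumed to vary like the others.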
